A study of Canis lupus familiaris with 12 samples.

Results

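The genes examined code for the eukaryotic translation initiation factors, the proteins that bring a ribosome to the start codon of a messenger RNA. They were chosen by name, as every symbol of the platform annotation that begins with EIF and a digit of 1 to 6, with the EIF2AK kinases and the argonaute symbols EIF2C left out. The rule gave 44 of the 15115 genes with a symbol of their own, represented by 106 probe sets, and 33 of the 44 genes had more than 1 probe set. Where a gene had several probe sets, the brightest (highest mean of the 12 arrays) stood for it, and 42 of the 44 genes lay above the dimmest 40% of probe sets. EIF4E2 and EIF4E1B lay below it. EIF4A1, EIF4G1 and EIF3C, which code for the main helicase and scaffold of the cap-binding complex and for a core subunit of eIF3, are not analysed here.

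The cells were C2, a canine mast cell tumour line whose KIT receptor carries a tandem duplication in its juxtamembrane unit and is therefore active in the absence of stem cell factor. Masitinib inhibits the tyrosine kinase activity of KIT, of the receptors for platelet-derived growth factor and of kinases of the Src family. Expression was profiled on Affymetrix Canine Genome 2.0 arrays in flasks taken before treatment (0 h) and in flasks after 12, 24 and 72 h in 100 nM masitinib, with 3 arrays at each of the 4 time points and 12 in all. All flasks held passages of this single line, thawed from an original stock, so the p-values measure the spread between flasks of 1 line. Untreated flasks of later times are not analysed here, and an effect of masitinib therefore cannot be told apart from one of time in culture.

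Initiation begins when the small ribosomal subunit is loaded with eIF1, eIF1A, eIF3, eIF5 and a complex of eIF2, GTP and the initiator tRNA. This assembly is recruited to the capped end of the messenger RNA by eIF4F, which joins the cap-binding protein eIF4E, the scaffold eIF4G and the helicase eIF4A, and it scans to the start codon, where eIF2 hydrolyses its GTP and leaves, still bound to GDP, and eIF5B joins the large subunit. The pathway is controlled mainly at 2 points: kinases that phosphorylate eIF2 and so block its recharging by eIF2B, and the mTOR kinase, which releases eIF4E from its repressors.

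All values are the authors' log2 expression values, on which a difference of 1 is a 2-fold difference. Array medians lay between 5.892 and 5.95 because quantile normalization gave the arrays nearly the same distribution, and Pearson's r between arrays of 1 time point, across probe sets, was 0.9952 to 0.9979. Of 9 mast cell markers 8 were available, all above the dimmest 40%, with a summed log2 level of 100.8 to 101.3 at 0 h, 104.1 to 104.6 at 12 h, 106.8 to 107.4 at 24 h and 106.9 to 108.2 at 72 h, while TPSAB1 was not used here. Of 5 lists of markers of other cell types, those of T cells and epithelial cells moved most. The sum of 5 of 5 T cell markers was 29.9 to 30.5 at 0 h, 30.7 to 31.1 at 12 h, 30.4 to 30.9 at 24 h and 28.6 to 29.2 at 72 h, with CD3G and CD2 among the dim probe sets, and the sum of 4 of 5 epithelial markers was 23.1 to 23.3 at 0 h, 24.5 to 25.4 at 12 h, 23.6 to 23.8 at 24 h and 20.7 to 21.0 at 72 h, with KRT19 and CDH1 dim and KRT8 not used here. As signs of RNA quality, the signal of ACTB at its 3′ end was above that at its 5′ end by 0.985 ± 0.232 before treatment (0 h), then by 0.828 ± 0.307 (12 h), 1.05 ± 0.24 (24 h) and 1.17 ± 0.253 (72 h). The GAPDH probe set at the 3′ end exceeded that at the 5′ end by 0.626 ± 0.0599 at 0 h, 0.457 ± 0.0587 at 12 h, 0.546 ± 0.182 at 24 h and 0.474 ± 0.0958 at 72 h (log2, SD, n = 3 each). The part of these shifts in the results was not tested.

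More initiation factor genes fell than rose after masitinib at each time. The test called 10 falls and 0 rises among the 44 genes at 12 h, 13 falls and 1 rise at 24 h, and 14 falls and 1 rise at 72 h. A call needed a Benjamini-Hochberg adjusted p under 0.001, from limma over 42924 probe sets, and a change of more than 1.5-fold. Of the initiation factor genes 22.7%, 29.5% and 31.8% fell at the 3 times, against 6.30%, 10.0% and 11.0% of all 15115 genes, and 4.26%, 8.01% and 8.73% of all genes rose. Most of the 44 genes are bright, and of the 10710 genes above the dimmest 40% of probe sets the shares that fell were 8.65%, 13.6% and 14.9%. At 12, 24 and 72 h the initiation factor genes had median log2 changes of -0.188, -0.247 and -0.243, beside 0.0106, 0.0333 and 0.0235 for all genes.

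In all, 21 genes were called at 1 or more of the 3 treated times and 23 at none. Among the 21, 19 fell, and EIF4A2 and EIF4B rose. The 7 genes EIF1AX, EIF2S1, EIF2S2, EIF2B1, EIF2B3, EIF3B and EIF4E fell at all 3 times. For all genes, calls were counted at each time and not over the 3 times together. These pooled counts therefore have no share of all genes to be read against. Beside the 0 rises at 12 h, 5 of the 44 genes were higher then at an unadjusted p under 0.05, against 19.8% of all genes.

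**Figure D1:**
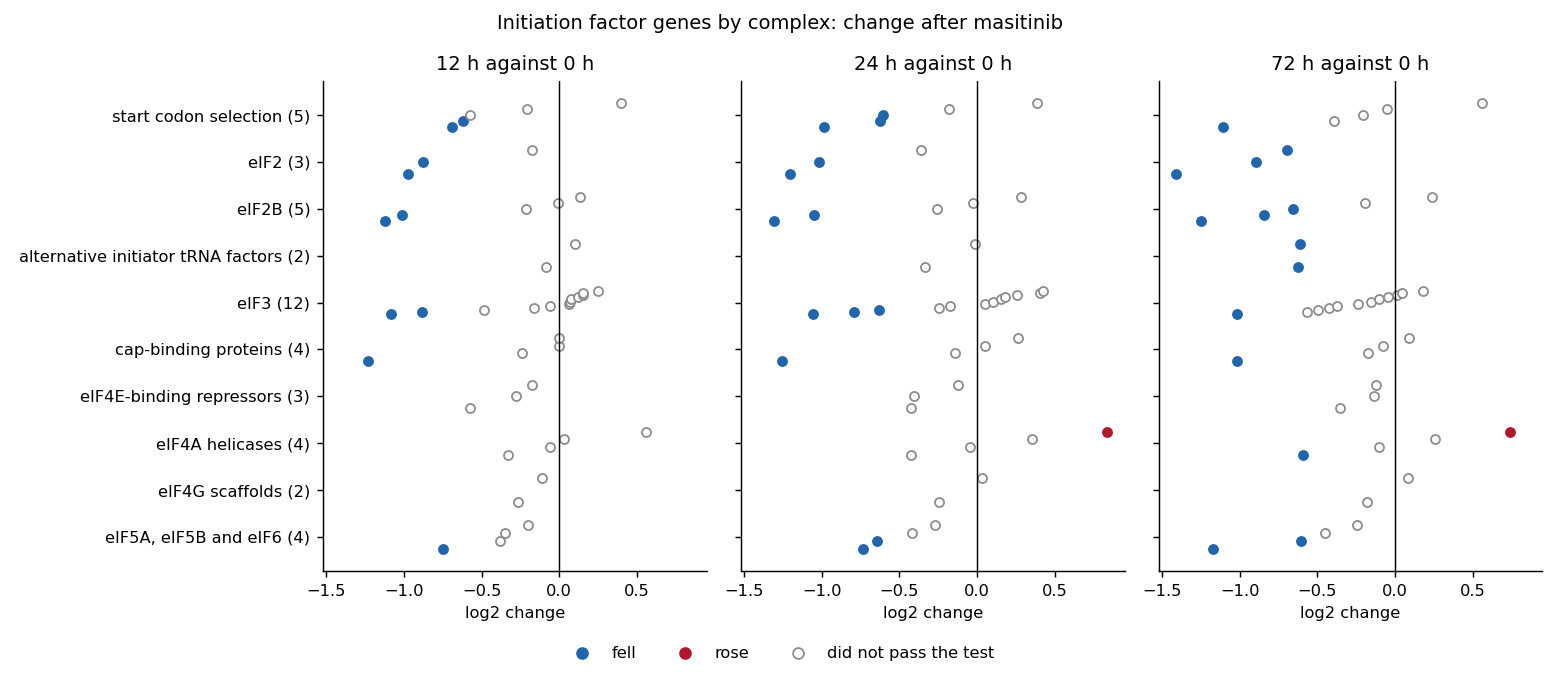
Log2 change against 0 h (horizontal axis) of the 44 initiation factor genes at 12, 24 and 72 h of masitinib, 1 point per gene, in rows by factor complex with the number of genes in brackets. Filled blue points fell, filled red points rose and open points did not pass the test; the 10, 13 and 14 genes that fell lie in several complexes, and the single red points are EIF4B at 24 h and EIF4A2 at 72 h.

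The direction of a change depends on what the arrays are scaled to. Bacterial poly-A control RNAs had probe sets that were higher in the treated arrays by 0.24 at 12 h, 0.513 at 24 h and 0.393 at 72 h (log2, mean of 42 probe sets), and scaling to them moved the median of all genes to -0.229, -0.48 and -0.369. On that scale 0 of the 44 initiation factor genes rose at any time, beside 2.10%, 2.51% and 4.18% of all genes, and 15, 27 and 24 of the 44 fell, beside 12.4%, 33.0% and 24.5% of all genes, while the share of falls among all called genes was 85.5%, 92.9% and 85.4%, beside 59.7%, 55.5% and 55.8% on the deposited scale. The initiation factor genes lay 0.199, 0.28 and 0.266 below the median of all genes on both scales. This gap could not change, because scaling to the controls shifts every gene of an array by the same amount. With cyclic loess scaling, which is not such a shift, the median of the initiation factor genes minus that of all genes was -0.181, -0.23 and -0.199. The changes below are on the deposited scale. In bulk RNA, fewer cells of a kind and less RNA per cell cannot be told apart. The paper gives a fixed input of total RNA for hybridization, so neither can be read from these values. Why the controls were higher in the treated arrays was not tested.

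The genes grouped here under scanning and start codon selection split into falling and uncalled members. EIF1AD was counted in this group, and whether it acts in these steps was not examined. EIF1AX, the X-linked form of eIF1A, which keeps the small subunit open for scanning, had log2 values of 10.68, 10.63 and 10.55 at 0 h, 9.95, 10.09 and 9.96 at 12 h, 9.61, 9.58 and 9.73 at 24 h, and 9.52, 9.43 and 9.61 at 72 h. Every treated array lay below every 0 h array. The successive log2 changes were -0.62, -0.98 and -1.10 (SE 0.0716), a 2.15-fold fall by 72 h (adjusted p = 4.84e-08 from limma), and its other probe set above the dimmest 40% changed by -0.70, -0.94 and -1.01. With the mean of its 3 probe sets, 1 of them dim, the 12 h change was -0.41, under the fold limit. EIF1AD, which codes for a protein with an eIF1A domain, had 9.37, 9.52 and 9.56 at 0 h, 8.94, 8.71 and 8.73 at 12 h, 9.04, 8.81 and 8.80 at 24 h, and 9.03, 9.05 and 9.19 at 72 h. The treated arrays were all lower than the 0 h arrays, and the fall passed at 12 h (-0.69, SE 0.0901) and 24 h (-0.60) while the 72 h change was -0.40 (adjusted p = 0.0031 from limma). The 24 h call of EIF1AD was lost without 0 h replicate 3, 24 h replicate 2 or 24 h replicate 3, with log2 changes of -0.56, -0.57 and -0.56, and with the mean of both probe sets (-0.56).

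EIF5 codes for the protein that makes eIF2 hydrolyse its GTP at the start codon. It had 12.34, 12.35 and 12.34 at 0 h, 11.78, 11.74 and 11.80 at 12 h, 11.76, 11.70 and 11.70 at 24 h, and 12.12, 12.10 and 12.19 at 72 h. The arrays of 12 and 24 h were the low ones and those of 72 h lay between them and 0 h, without overlap. The fall passed at 24 h (-0.62, SE 0.0536, adjusted p = 7.77e-07 from limma), while the log2 change was -0.57 at 12 h, under the fold limit, and -0.21 at 72 h. The 4 probe sets of EIF5 did not follow 1 course: another fell at all 3 times, by -0.95, -1.31 and -1.23, so the value at 72 h depends on the probe set.

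EIF1, which keeps the small subunit from settling on a wrong codon, and its close relative EIF1B had changes of opposite sign. Neither passed the test on the deposited scale. EIF1 had 13.37, 13.42 and 13.37 at 0 h, 13.19, 13.17 and 13.16 at 12 h, 13.19, 13.23 and 13.20 at 24 h, and 13.32, 13.35 and 13.33 at 72 h. EIF1B had 10.12, 10.06 and 10.05 at 0 h, 10.51, 10.46 and 10.48 at 12 h, 10.47, 10.42 and 10.50 at 24 h, and 10.62, 10.63 and 10.66 at 72 h. The treated EIF1B arrays were all above those of 0 h, with a log2 change of 0.40, 0.39 and 0.56 (SE 0.0534, adjusted p = 1.79e-06 at 72 h from limma) that stayed under 1.5-fold. Scaled to the poly-A controls, the changes of EIF1B were 0.16, -0.13 and 0.17. With cyclic loess scaling its 72 h change was 0.594, just above the fold limit of 0.585. The log2 change of EIF1 was -0.21, -0.18 and -0.05. Its 5 probe sets ranged over -0.57 to -0.21 at 12 h, -0.45 to -0.17 at 24 h and -0.30 to -0.05 at 72 h, and none passed.

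All 3 subunits of eIF2, the factor that carries the initiator tRNA, had fallen by 72 h, beside 11.0% of all genes. EIF2S1, the alpha subunit whose phosphorylation slows initiation, had 11.73, 11.73 and 11.53 at 0 h, 10.71, 10.65 and 10.71 at 12 h, 10.47, 10.48 and 10.43 at 24 h, and 10.20, 10.41 and 10.15 at 72 h. The 4 time points did not overlap and each later one was lower. Log2 changes of -0.97, -1.20 and -1.41 were found (SE 0.078, adjusted p = 1.13e-08 at 72 h from limma), the largest fall at 72 h among the brightest probe sets of the 44 genes, at 2.66-fold.

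EIF2S2, the beta subunit, had 13.06, 13.05 and 12.99 at 0 h, 12.14, 12.17 and 12.15 at 12 h, 12.03, 11.99 and 12.02 at 24 h, and 12.19, 12.14 and 12.07 at 72 h. All treated arrays were lower than those of 0 h, and the treated times lay close together, with log2 changes of -0.88, -1.02 and -0.90 (SE 0.0555). EIF2S3, the gamma subunit that binds GTP and the tRNA, had 13.32, 13.33 and 13.34 at 0 h, 13.12, 13.18 and 13.16 at 12 h, 13.00, 12.96 and 12.94 at 24 h, and 12.64, 12.61 and 12.65 at 72 h. It was lower at each later time without overlap, and the log2 change of -0.17 at 12 h and -0.36 at 24 h passed both limits only at 72 h (-0.69, SE 0.0515, adjusted p = 1.71e-07 from limma), where the mean of its 3 probe sets gave -0.54 and no call. Whether the courses of the subunits differ was not tested.

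The 5 subunits of eIF2B, the exchange factor that recharges eIF2 with GTP, did not move as a unit. EIF2B1, the regulatory alpha subunit, had 9.67, 9.60 and 9.56 at 0 h, 8.54, 8.60 and 8.67 at 12 h, 8.34, 8.13 and 8.44 at 24 h, and 8.28, 8.34 and 8.46 at 72 h. All treated arrays were lower, by a log2 change of -1.01, -1.31 and -1.25 (SE 0.0832, adjusted p = 6.27e-08 at 72 h from limma). EIF2B3, the gamma subunit of the catalytic subcomplex, had 10.27, 10.30 and 10.42 at 0 h, 9.26, 9.17 and 9.21 at 12 h, 9.37, 9.27 and 9.22 at 24 h, and 9.52, 9.43 and 9.50 at 72 h. Its lowest arrays were those of 12 and 24 h, and the log2 change was -1.12, -1.05 and -0.85 (SE 0.0647). With the mean of all probe sets, dim ones included, the changes of EIF2B3 were -0.50, -0.39 and -0.30 and that of EIF2B1 at 12 h was -0.54, all under the fold limit.

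EIF2B5, the catalytic epsilon subunit, had 10.27, 10.40 and 10.27 at 0 h, 10.04, 10.10 and 10.14 at 12 h, 10.07, 10.03 and 10.07 at 24 h, and 9.61, 9.58 and 9.76 at 72 h. The 72 h arrays stood below all others, and the fall passed there (-0.66, SE 0.0658, adjusted p = 2.71e-06 from limma) and not at 12 h (-0.21) or 24 h (-0.26). Averaged with its other probe set, which lies among the dimmest 40%, the 72 h change was -0.17 (adjusted p = 0.0486 from limma) and did not pass. The beta subunit EIF2B2 and the delta subunit EIF2B4, both regulatory, passed at no time. Their log2 changes at 72 h were -0.19 and 0.24, and EIF2B4 turned to -0.15 when scaled to the poly-A controls. A dimmer probe set of EIF2B4, with a mean of 6.66 beside 10.96 for the brightest, passed as a rise at 24 h (0.75) and 72 h (0.95).

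**Figure D2:**
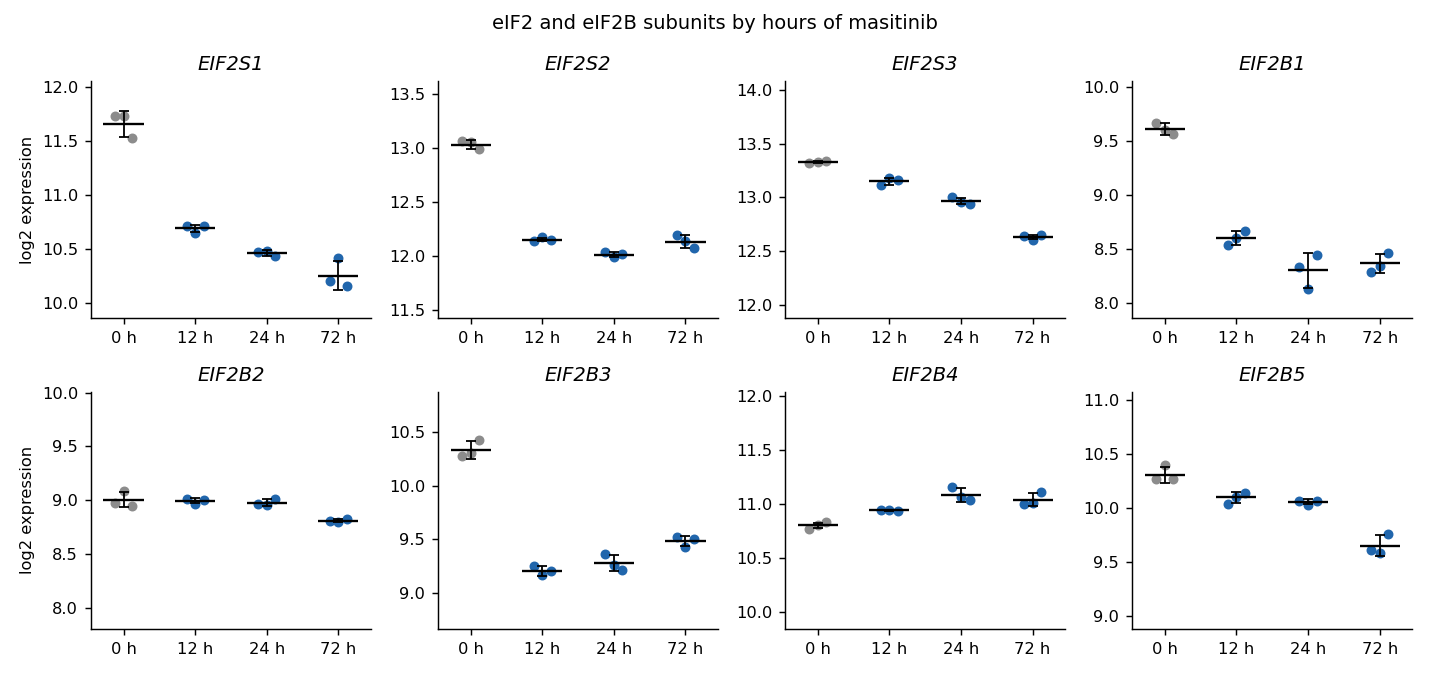
Log2 expression (vertical axis, the same span of log2 units in each panel) of the 3 eIF2 and 5 eIF2B subunit genes at 0, 12, 24 and 72 h of masitinib, 3 arrays per time point. Points are arrays, horizontal lines are means and bars are SDs. EIF2S1, EIF2S2, EIF2S3, EIF2B1, EIF2B3 and EIF2B5 were lower in every array from 12 h on. Of these EIF2S3 and EIF2B5 passed the test at 72 h only, and EIF2B2 and EIF2B4 passed it at no time.

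EIF2A and EIF2D code for single-chain proteins that can bring a tRNA to the ribosome without eIF2, and the brightest probe set of both passed as a fall at 72 h only. EIF2A had 9.43, 9.49 and 9.39 at 0 h, 9.57, 9.52 and 9.52 at 12 h, 9.47, 9.37 and 9.43 at 24 h, and 8.88, 8.71 and 8.90 at 72 h. The 72 h arrays stood apart below the other 9, with a log2 change against 0 h of -0.61 (SE 0.065, adjusted p = 5.15e-06 from limma), beside 0.10 at 12 h, which turned to -0.14 when scaled to the poly-A controls, and -0.01 at 24 h. This call lay close to the fold limit and was lost without 0 h replicate 2 (-0.58) or 72 h replicate 2 (-0.55), while all 3 probe sets of EIF2A passed at 72 h with log2 changes of -0.89 to -0.61. EIF2D, also known as ligatin, had 12.17, 12.20 and 12.18 at 0 h, 12.01, 12.11 and 12.18 at 12 h, 11.80, 11.88 and 11.86 at 24 h, and 11.59, 11.54 and 11.55 at 72 h. The 12 h arrays overlapped with those of 0 h and the later ones did not, and the log2 change was -0.08, -0.34 and -0.62 (SE 0.0595, adjusted p = 1.79e-06 at 72 h from limma). Of its 4 probe sets, 2 passed as falls at 24 h and 4 at 72 h, and with cyclic loess scaling the 72 h change was -0.57 and under the fold limit.

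Of the 12 genes measured for eIF3, the many-subunit factor that holds the small subunit and the messenger RNA together, 3 fell and 9 passed at no time. By time, 2, 3 and 1 of the 12 fell at 12, 24 and 72 h, beside 6.30%, 10.0% and 11.0% of all genes. EIF3B, a core subunit that organises the complex, had 11.80, 11.84 and 11.80 at 0 h, 10.86, 10.92 and 11.02 at 12 h, 10.95, 10.63 and 10.68 at 24 h, and 10.74, 10.82 and 10.84 at 72 h. Every treated array was lower than every 0 h array and the treated times overlapped with each other. The log2 change was -0.88, -1.06 and -1.02 (SE 0.0809, adjusted p = 3.29e-07 at 72 h from limma), and all 3 of its probe sets fell at all 3 times. EIF3J, a loosely bound subunit that sits near the decoding site, had 10.39, 10.48 and 10.42 at 0 h, 9.30, 9.32 and 9.43 at 12 h, 9.71, 9.60 and 9.60 at 24 h, and 9.92, 9.65 and 10.03 at 72 h. It was lowest at 12 h, and its log2 change of -1.08 at 12 h and -0.80 at 24 h passed, while that of -0.56 at 72 h (SE 0.0873) was under the fold limit.

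EIF3A, the largest core subunit, had 12.69, 12.60 and 12.66 at 0 h, 12.19, 12.17 and 12.14 at 12 h, 12.03, 12.03 and 11.99 at 24 h, and 12.24, 12.16 and 12.28 at 72 h. The treated arrays were all lower, with log2 changes of -0.48, -0.63 and -0.42 (SE 0.0564), of which the 24 h one passed. The other probe set of EIF3A, with a mean of 8.78, changed by -0.32, -0.60 and -0.74 (SE 0.235) and passed at no time. The other 9 subunit genes, EIF3D, EIF3E, EIF3F, EIF3G, EIF3H, EIF3I, EIF3K, EIF3L and EIF3M, had means over all arrays between 11.28 (EIF3I) and 13.47 (EIF3H). The 12 genes had median log2 changes of 0.07, 0.08 and -0.20 at 12, 24 and 72 h, the first 2 of which turned negative with scaling to the poly-A controls. Among the 9, EIF3D and EIF3F had the highest changes at 24 h, 0.43 (adjusted p = 0.000525 from limma) and 0.40 (3.39e-05), under the fold limit and both negative when scaled to the poly-A controls (-0.09 and -0.11), and EIF3I had the lowest at 72 h, -0.49 (3.83e-05).

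**Figure D3:**
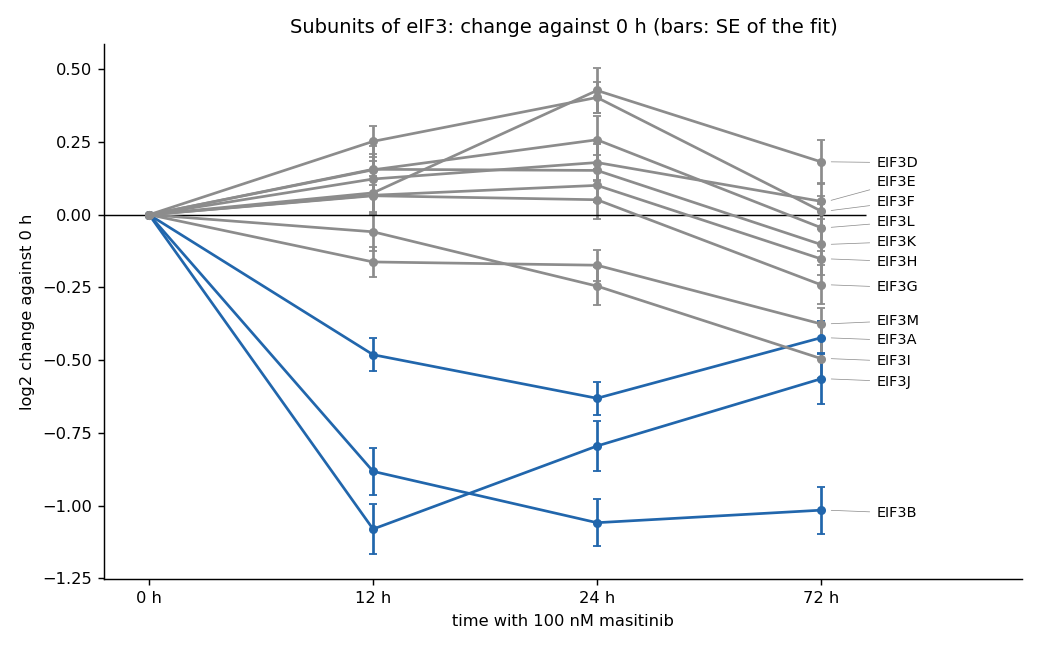
Log2 change against 0 h (vertical axis) of the 12 eIF3 subunit genes at 0, 12, 24 and 72 h of masitinib (horizontal axis, not to scale in time). Points are fitted changes over 3 arrays per time point with the SE of the fit as bars; blue lines are EIF3A, EIF3B and EIF3J, which passed the test at 1 or more times, and grey lines are the 9 genes that passed it at no time.

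EIF4E, which codes for the protein that binds the cap, fell at all 3 times. It had 10.57, 10.59 and 10.58 at 0 h, 9.34, 9.31 and 9.39 at 12 h, 9.24, 9.28 and 9.45 at 24 h, and 9.56, 9.53 and 9.59 at 72 h. The 0 h arrays lay close together and all 9 treated arrays were far below them. The log2 change was -1.23 at 12 h, a 2.35-fold fall (SE 0.0629, adjusted p = 2.35e-08 from limma), the largest at 12 h among the brightest probe sets of the 44 genes, and it was -1.25 at 24 h and -1.02 at 72 h. Its second probe set, 8.80 in the mean, gave -1.40, -1.60 and -1.14. The relatives of EIF4E were dim or near the limit of dim probe sets, with means of 4.20 for EIF4E2, which represses translation, 5.15 for the germline form EIF4E1B and 5.45 for EIF4E3. They passed at no time, and at such levels a change may not be detectable.

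The eIF4E-binding repressors passed at no time. EIF4EBP1, which mTOR phosphorylates to free eIF4E, had 9.70, 9.69 and 9.78 at 0 h, 9.27, 9.01 and 9.18 at 12 h, 9.40, 9.20 and 9.30 at 24 h, and 9.24, 9.35 and 9.52 at 72 h. All its treated arrays lay below those of 0 h, with log2 changes of -0.57 (adjusted p = 0.000225 from limma), -0.43 and -0.35 that were under the fold limit. Its paralog EIF4EBP2 had 6.33, 6.21 and 6.41 at 0 h, 6.10, 5.92 and 6.10 at 12 h, 6.00, 5.80 and 5.93 at 24 h, and 6.48, 6.18 and 5.89 at 72 h. The 72 h arrays of EIF4EBP2 overlapped with 0 h, and its log2 change was -0.28, -0.41 and -0.13. EIF4ENIF1, which carries eIF4E into the nucleus and to processing bodies, changed by -0.17, -0.12 and -0.12.

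The helicases and their cofactors held the 2 genes that rose on the deposited scale. EIF4A2, a paralog of the main eIF4F helicase, had 12.65, 12.70 and 12.74 at 0 h, 12.71, 12.72 and 12.77 at 12 h, 13.05, 13.04 and 13.05 at 24 h, and 13.45, 13.34 and 13.52 at 72 h. The 12 h arrays overlapped with those of 0 h, and the 24 h and 72 h arrays were each above all earlier ones. The log2 change was 0.03, 0.35 and 0.74 (SE 0.0597, adjusted p = 3.68e-07 at 72 h from limma), a rise that passed at 72 h and that was 0.35 (adjusted p = 0.0113 from limma) when scaled to the poly-A controls, with the 24 h value turning to -0.16. EIF4A2 has 1 probe set, of a type that can match more than 1 transcript.

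EIF4B, which helps the helicase to unwind RNA, had 11.13, 10.98 and 10.91 at 0 h, 11.56, 11.55 and 11.59 at 12 h, 11.79, 11.84 and 11.89 at 24 h, and 11.30, 11.30 and 11.19 at 72 h. It was highest at 24 h and the 72 h arrays lay between those of 0 h and 12 h. The log2 change of 0.84 at 24 h passed as a rise (SE 0.0666, adjusted p = 3.72e-07 from limma) and was 0.32 (adjusted p = 0.0218 from limma) when scaled to the poly-A controls, while those of 0.56 at 12 h and 0.26 at 72 h did not pass, the 72 h one turning to -0.13 on that scale. Its 2 dimmer probe sets passed at no time, with 0.56 and 0.10 at 24 h, and the mean of the 3 gave 0.50 and no call there. EIF4H, another cofactor of the helicase, changed by -0.06, -0.05 and -0.11.

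EIF4A3, a nuclear relative that belongs to the exon junction complex, had 11.76, 11.74 and 11.75 at 0 h, 11.39, 11.40 and 11.47 at 12 h, 11.37, 11.30 and 11.30 at 24 h, and 11.06, 11.22 and 11.19 at 72 h. Each later time was lower without overlap, and the log2 change of -0.33, -0.43 and -0.59 passed at 72 h (SE 0.0594, adjusted p = 2.9e-06 from limma), close to the fold limit. Without 72 h replicate 1 it was -0.54, as it was with cyclic loess scaling, and the call was lost, while its second probe set fell at 24 h (-0.59) and 72 h (-0.82). Of the scaffolds, EIF4G3 and EIF4G2, a relative that lacks the site for eIF4E and is also known as DAP5, passed at no time. EIF4G2 was the brightest of the 44 genes, with a mean of 13.8 and log2 changes of -0.11, -0.25 and -0.18, and EIF4G3 changed by -0.27, 0.03 and 0.08, the last 2 of which turned to -0.48 and -0.31 when scaled to the poly-A controls.

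**Figure D4:**
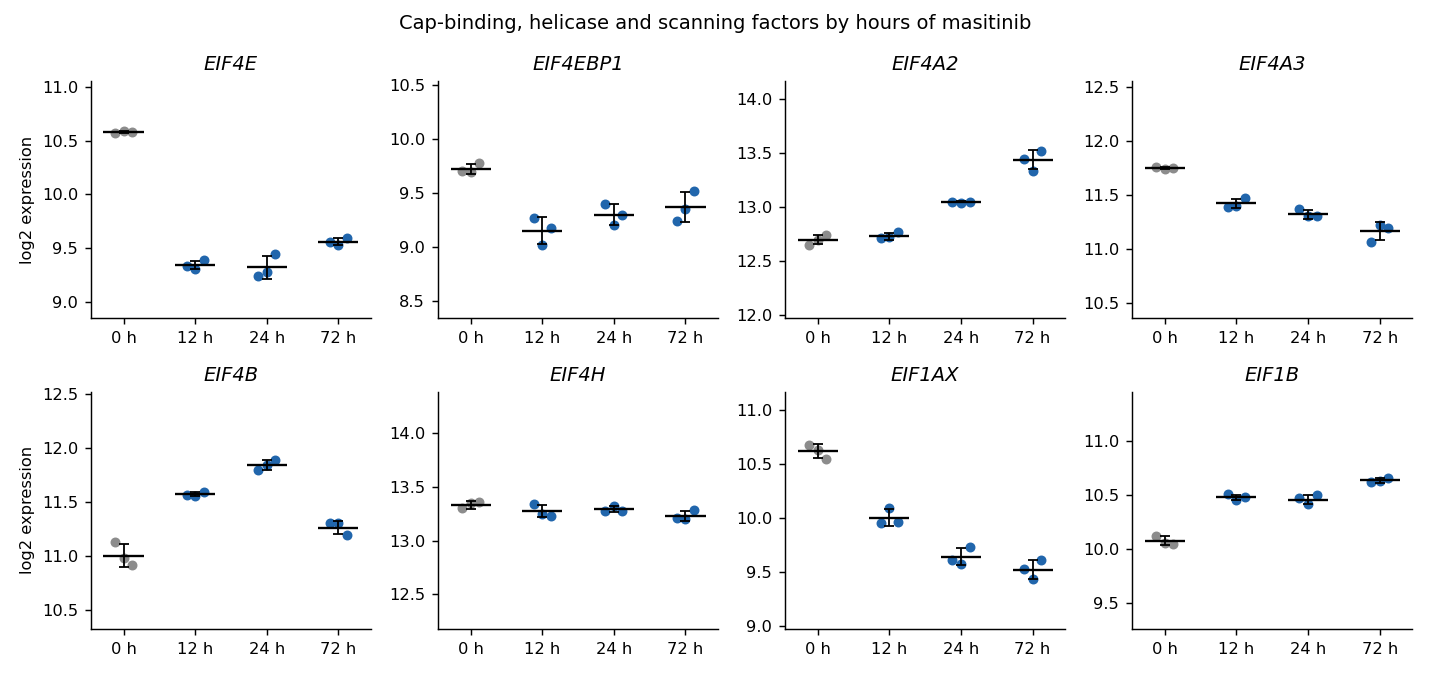
Log2 expression (vertical axis, the same span of log2 units in each panel) of EIF4E, EIF4EBP1, EIF4A2, EIF4A3, EIF4B, EIF4H, EIF1AX and EIF1B at 0, 12, 24 and 72 h of masitinib, 3 arrays per time point. Points are arrays, horizontal lines are means and bars are SDs. EIF4E, EIF4EBP1, EIF4A3 and EIF1AX were lower in all treated arrays, EIF4A2 was highest at 72 h and EIF4B at 24 h.

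The factors that act around subunit joining and after it also fell in part. EIF6, which keeps the large subunit from joining early, had 11.64, 11.74 and 11.72 at 0 h, 10.99, 10.91 and 10.97 at 12 h, 11.08, 11.07 and 11.02 at 24 h, and 11.13, 11.28 and 11.34 at 72 h. All treated arrays were lower, and the log2 change passed at 12 h (-0.75, SE 0.0649, adjusted p = 1.89e-06 from limma) and 24 h (-0.65), while it was -0.45 at 72 h. Both probe sets of EIF6 gave these calls.

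EIF5A and EIF5A2 code for the factors that carry the modified amino acid hypusine and ease the movement of the ribosome over difficult stretches. EIF5A had 12.53, 12.54 and 12.60 at 0 h, 12.20, 12.23 and 12.19 at 12 h, 11.84, 11.84 and 11.79 at 24 h, and 11.98, 11.97 and 11.91 at 72 h. The 24 h arrays were the lowest, and the log2 change of -0.35, -0.73 and -0.60 (SE 0.0533) passed at 24 h and 72 h. The 72 h call lay at the fold limit and was lost without 0 h replicate 3 (-0.58) or 72 h replicate 3 (-0.58) and with cyclic loess scaling (-0.55), but the other probe sets of EIF5A fell at all 3 times, by -0.90, -1.49 and -1.21 and by -0.63, -0.96 and -0.95.

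EIF5A2 had 9.62, 9.61 and 9.56 at 0 h, 9.21, 9.24 and 9.20 at 12 h, 9.33, 9.07 and 9.13 at 24 h, and 8.51, 8.22 and 8.55 at 72 h. The 72 h arrays stood below all others. The log2 change was -0.38 and -0.42 at 12 h and 24 h, which did not pass, and -1.17 at 72 h, a 2.25-fold fall (SE 0.09, adjusted p = 2.35e-07 from limma), and its 3 probe sets gave -1.30 to -1.06 there. EIF5A2 was lowest at 72 h and its paralog EIF5A at 24 h, and whether these courses differ was not tested.

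EIF5B, the GTPase that joins the subunits, had probe sets of very different spread. Its brightest probe set had 11.78, 11.43 and 11.08 at 0 h, 11.28, 11.21 and 11.19 at 12 h, 10.95, 11.25 and 11.28 at 24 h, and 11.44, 11.33 and 10.78 at 72 h. These arrays overlapped at every time, and the log2 changes of -0.20, -0.27 and -0.24 had an SE of 0.182. Of its 3 other probe sets above the dimmest 40%, 2 fell at all 3 times, by -0.72, -0.91 and -0.67 and by -0.84, -0.83 and -0.61, with SEs of 0.0715 and 0.0889. Against 0 h, 6 genes had another probe set that passed at a time when the brightest did not, namely EIF2B4, EIF2D, EIF4A3, EIF5, EIF5A and EIF5B. The other probe set of EIF2B4 rose and those of the other 5 genes fell.

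**Figure D5:**
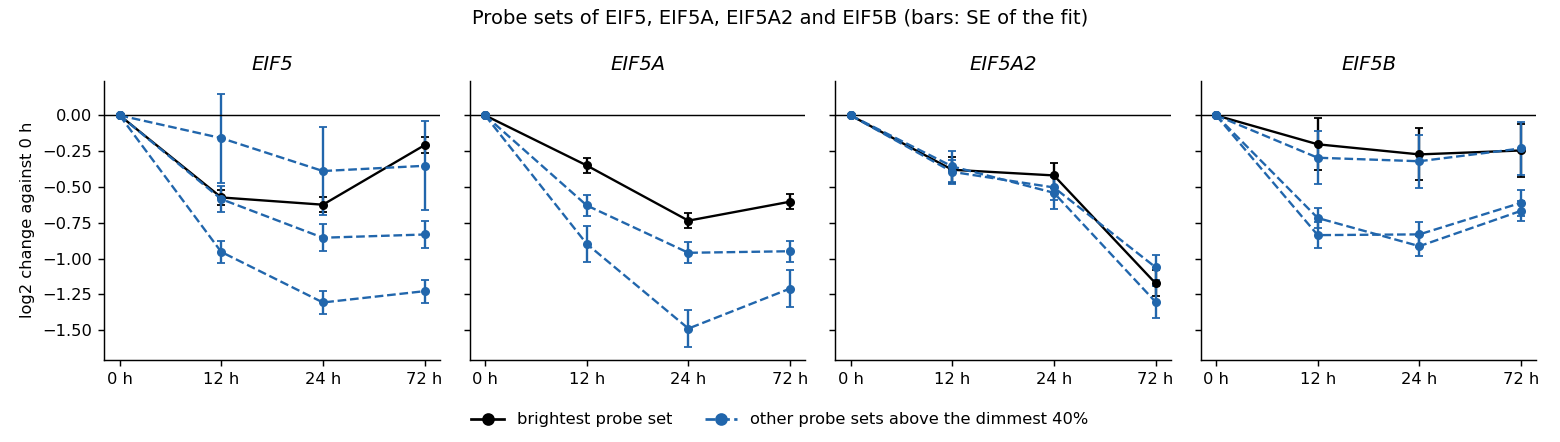
Log2 change against 0 h (vertical axis) of each probe set above the dimmest 40% for EIF5, EIF5A, EIF5A2 and EIF5B at 0, 12, 24 and 72 h of masitinib (not to scale in time). The solid black line is the brightest probe set, dashed blue lines are the others and bars are the SE of the fit; the 3 probe sets of EIF5A2 ran together, while those of EIF5 at 72 h lay between -1.23 and -0.21.

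Between treated times few members passed the test by their brightest probe set. From 12 h to 24 h 0 genes passed in either direction with limma, beside 3.10% of all genes that fell and 1.41% that rose, and at an unadjusted p under 0.05 11 of the 44 were lower and 8 higher at 24 h, beside 14.4% and 16.5% of all genes. A one-way analysis of variance with Storey q-values at the same limits also gave 0. At 72 h against 24 h EIF2A (-0.60, SE 0.065, adjusted p = 3.81e-05 from limma) and EIF5A2 (-0.75, SE 0.09, adjusted p = 7.78e-05) fell, 2 of 44 or 4.55%, beside 1.81% of all genes, and 0 rose, beside 1.96%. Without 24 h replicate 1 the change of EIF2A was -0.57 and without 72 h replicate 2 it was -0.54, and its call was lost. In a fit of the 24 h and 72 h arrays alone neither gene passed (adjusted p = 0.00175 for EIF2A and 0.00308 for EIF5A2 from limma), nor did they when scaled to the poly-A controls (log2 changes of -0.48 and -0.63). EIF4B missed this call closely, with a log2 change of -0.58 (adjusted p = 5.91e-05) beside a limit of 0.585. At an unadjusted p under 0.05 17 were lower and 13 higher at 72 h, beside 16.2% and 15.8% of all genes. Set against 12 h, the 72 h arrays gave 2 falls (EIF2A and EIF5A2) and 1 rise (EIF4A2), 4.55% and 2.27% of the 44 genes beside 5.51% and 4.80% of all genes. Some dimmer probe sets passed where the brightest did not. A probe set of EIF3F fell at 72 h against 24 h (-0.68, adjusted p = 7.06e-06 from limma). At 72 h against 12 h, probe sets of EIF2D (-0.72) and EIF2S3 (-0.61) fell and that of EIF2B4 with a mean of 6.66 rose (0.64).

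Genes that act on these factors were examined in 8 lists, to be read beside the shares of all genes given above. The list of 8 genes for the eIF2 kinases, their helpers and the eIF2 phosphatase held 1 rise and 1 fall at 12 h, the same numbers at 24 h, and 2 rises and 1 fall at 72 h. PPP1R15A, also known as GADD34, which brings a phosphatase to eIF2, had 8.93, 8.95 and 9.03 at 0 h, 9.97, 9.55 and 9.80 at 12 h, 10.25, 10.13 and 10.20 at 24 h, and 10.37, 10.33 and 10.59 at 72 h. All treated arrays were higher, by a log2 change of 0.81, 1.22 and 1.46 (SE 0.101, adjusted p = 9.27e-08 at 72 h from limma), and the 12 h rise was 0.57 and lost its call when scaled to the poly-A controls. GCN1, an activator of the kinase GCN2, fell at 12 h (-0.78) and 24 h (-0.75), and EIF2AK2, the kinase that double-stranded RNA activates, fell at 72 h (-0.67), a call lost in a fit of the 0 h and 72 h arrays alone (adjusted p = 0.00106 from limma). The kinase gene EIF2AK3, also known as PERK, rose at 72 h (0.66), a call lost when scaled to the poly-A controls (0.26).

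Of 8 genes that the integrated stress response switches on, 1 fell at 12 h, 2 fell at 24 h, and 2 fell and 1 rose at 72 h. ASNS, which makes asparagine, had 11.42, 11.43 and 11.29 at 0 h, 10.67, 10.58 and 10.59 at 12 h, 9.51, 9.43 and 9.48 at 24 h, and 9.61, 9.69 and 9.75 at 72 h. PSAT1, an enzyme of serine synthesis, had 12.80, 12.82 and 12.84 at 0 h, 12.45, 12.39 and 12.50 at 12 h, 10.71, 10.56 and 10.55 at 24 h, and 10.60, 10.60 and 10.68 at 72 h. The arrays of 24 h and 72 h were lowest for both, with log2 changes of -1.91 and -1.70 for ASNS and -2.21 and -2.20 for PSAT1, and -0.77 and -0.37 at 12 h. DDIT3, also known as CHOP, rose at 72 h (0.65), a call lost without 0 h replicate 1 (0.56) and when scaled to the poly-A controls (0.25). ATF4, whose protein switches these genes on, was under the fold limit with -0.48, -0.52 and -0.21.

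Of 14 genes that feed mTOR and MAPK signals into eIF4F, 3 rose and 0 fell at each time. DEPTOR, an inhibitor of mTOR, had 8.15, 7.58 and 7.41 at 0 h, 9.63, 9.55 and 9.66 at 12 h, 9.47, 9.79 and 9.65 at 24 h, and 9.88, 9.81 and 9.23 at 72 h. Its treated arrays were all higher than those of 0 h, by a log2 change of 1.90, 1.92 and 1.93 (SE 0.191, adjusted p = 2.48e-06 at 72 h from limma). PDCD4, which binds eIF4A and holds it inactive, rose by 1.43, 1.75 and 2.07 (SE 0.0578). DDIT4, which inhibits mTOR through the TSC complex, rose at 12 h (0.88) and was at 0.29 and -0.16 later. The other rise at 24 h and 72 h was that of TSC2, a subunit of that complex (0.65 and 0.64), with 0.14 and 0.25 and no call when scaled to the poly-A controls, and the 72 h call was also lost without 0 h replicate 3 (0.58).

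Of 6 measured genes for poly(A)-binding proteins and their partners, 2 rose and 0 fell at each time. They were PAIP2 and PAIP2B, whose proteins keep the poly(A)-binding protein from its partners. PAIP2 had 11.10, 11.10 and 11.12 at 0 h, 12.13, 12.15 and 12.14 at 12 h, 12.14, 12.14 and 12.12 at 24 h, and 12.02, 12.02 and 11.95 at 72 h. All 9 treated arrays stood above those of 0 h, by a log2 change of 1.03, 1.02 and 0.88 (SE 0.0512). PAIP2B changed by 1.01, 1.09 and 1.40 (SE 0.129). Scaled to the poly-A controls, PAIP2 lost its call at 24 h (0.51) and 72 h (0.49) and PAIP2B at 24 h (0.58), with the direction kept.

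Of 7 measured genes for other initiation proteins, 0 rose and the falls numbered 3, 2 and 3 at the 3 times. ABCE1, which splits ribosomes into subunits for a new round, had 9.88, 10.09 and 9.85 at 0 h, 8.40, 8.49 and 8.53 at 12 h, 8.43, 8.22 and 8.30 at 24 h, and 8.47, 8.25 and 8.51 at 72 h. The treated arrays were all lower and did not overlap with 0 h, with log2 changes of -1.47, -1.62 and -1.53 (SE 0.0902, adjusted p = 1.99e-08 at 72 h from limma). ABCF1, which binds eIF2 and ribosomes, fell at all 3 times (-0.68, -0.63 and -0.69), with the 24 h call lost without 24 h replicate 2 (-0.57), while YTHDF1, a reader of methylated RNA, fell at 12 h (-0.61), a call lost without 0 h replicate 3 (-0.59) or 12 h replicate 1 (-0.53), and DENR, which recycles tRNA and the small subunit, fell at 72 h (-0.69).

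Later steps of translation differed in their counts. Of 10 genes for elongation factors and for proteins linked to them or modifying them, 1 fell at each time and 0 rose. It was EEF1E1, named after an elongation factor and known as a scaffold protein of the tRNA synthetase complex, with 11.57, 11.59 and 11.54 at 0 h, 10.53, 10.61 and 10.69 at 12 h, 10.33, 10.33 and 10.39 at 24 h, and 10.57, 10.53 and 10.51 at 72 h. The treated arrays did not overlap with those of 0 h, and the log2 change was -0.96, -1.21 and -1.03 (SE 0.058).

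Of 5 genes for termination and ribosome rescue 3 fell at 12 h and at 24 h, and 2 fell and 1 rose at 72 h. ETF1, which reads the stop codons, fell at all 3 times (-0.65, -0.92 and -1.10, SE 0.0617), and so did PELO, which rescues stalled ribosomes (-0.87, -0.89 and -0.65). GSPT1, the GTPase partner of ETF1, fell at 12 h (-0.83) and 24 h (-0.60), a 24 h call lost without 24 h replicate 2 (-0.57) or 24 h replicate 3 (-0.58). GSPT2, a relative of GSPT1, rose at 72 h (0.70), a call lost when scaled to the poly-A controls (0.31). Both mitochondrial initiation factor genes passed at no time. The lists hold few genes, and their counts were not tested against each other.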

How the data were processed

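The deposited log2 values were made by the authors in Partek Genomics Suite 6.4 with its gcRMA workflow, in which the signal is corrected for background, quantile normalized across arrays and summarised per probe set by median polish. Per the submitters' processing notes the tools were Partek and RMA. Quantile normalization removes a change shared by most transcripts.

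All further steps were run in R 4.3.3 with limma 3.58.1 and Python 3.11.15 with pandas 2.3.3, numpy 2.4.6 and matplotlib 3.10.9. Of 43035 probe sets, 111 controls were set aside and 42924 tested with lmFit and eBayes, with 1 coefficient per time point over all 12 arrays and no covariate. Adjustment followed Benjamini and Hochberg within each comparison, and calls were made below an adjusted p of 0.001 where the change exceeded 1.5-fold, the limits of the study's methods. Symbols came from the platform annotation: 29254 probe sets had 1 symbol, 439 several and 13231 none, and 2 probe sets with several symbols that include an initiation factor were left out. Values in every array were given for up to 4 called genes per complex and for paralog pairs, and named pathway genes were up to 3 called genes per list with the largest change. ATF4, EIF2AK3, TSC2, YTHDF1 and GSPT2 were named after their values were seen, where they fell outside this rule. The genes, lists and tests were chosen with earlier results of these data known, so no list was tested as a set.

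The number of arrays limits the precision. Residuals had a median SD of 0.1124 (log2), and 0 pairs of arrays held identical values. The fit was tried on simulated data for 72 h against 0 h over 42924 probe sets. Of 100 simulated 2-fold changes 84 were called, of 100 simulated 3-fold changes 94 were called, and 0 calls were false. In the data 1668 genes fell and 1320 rose at 72 h, far more than were changed in the simulation. The simulated rates may therefore not hold for the data, and they say nothing about any single initiation factor gene. Alternatives covered scaling, probe set choice, dim probe sets, the arrays in the fit, thresholds, the methods' analysis of variance with Storey q-values, the replicate number and each array left out. Scaling to the poly-A controls without trp was chosen after seeing the data. Probe sets whose names end in s_at or x_at can match more than 1 transcript, so signal shared between related genes cannot be separated. Promoter and protein sequences were not used here.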

Additional observations from a re-analysis of the deposited data

Results flagged for a closer look

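By the brightest probe sets, the change against 0 h differed between 12 h and 72 h for 3 of the 44 initiation factor genes. The test was the limma comparison of the 72 h with the 12 h arrays at the same limits. Of all genes 5.51% fell and 4.80% rose between these times. EIF2A had a difference of -0.7116 on the log2 scale (72 h minus 12 h, SE 0.065, adjusted p = 2.77e-06 from limma), with all 3 arrays of 72 h below those of 12 h. EIF5A2 had a difference of -0.7926 (SE 0.09, adjusted p = 1.86e-05 from limma), with all 3 arrays of 72 h below those of 12 h. EIF4A2 had a difference of 0.7058 (SE 0.0597, adjusted p = 1.36e-06 from limma), with all 3 arrays of 72 h above those of 12 h. Scaled to the poly-A controls, the difference for EIF4A2 was 0.55 (adjusted p = 0.000633 from limma) and under the fold limit.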

How the results depend on the processing

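Leaving out each array in turn kept 36 of the 41 called changes of initiation factor genes, and the other 5 (EIF1AD at 24 h, EIF2A, EIF4A3 and EIF5A at 72 h, and EIF2A at 72 h against 24 h) are given with their values above. The counts ranged over 0 to 1 rises and 10 to 11 falls at 12 h, 1 rise and 12 to 13 falls at 24 h, 1 rise and 13 to 15 falls at 72 h, 2 to 3 falls at 72 h against 24 h, and 1 to 2 rises and 2 to 3 falls at 72 h against 12 h. The median change ranged over -0.22 to -0.17 at 12 h, -0.247 to -0.213 at 24 h and -0.296 to -0.232 at 72 h. Where an array was left out, its time point kept 2 arrays and shared the spread of the others. The counts with an array left out have no share of all genes to be read against.

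Scaled to the poly-A controls, the median changes were -0.428, -0.76 and -0.636 at 12, 24 and 72 h, with 27 falls at 24 h, 24 at 72 h, 2 at 24 h against 12 h and 8 at 72 h against 12 h, and 0 rises at 24 h, at 72 h and at 72 h against 12 h, and 0 falls at 72 h against 24 h. Without trp the medians were -0.481, -0.85 and -0.714, with 16, 30 and 28 falls among the 44 genes beside 14.3%, 46.8% and 30.7% of all genes, 0 rises at these times and at 72 h against 12 h, 2 falls at 24 h against 12 h, 8 at 72 h against 12 h and 0 at 72 h against 24 h. Median scaling gave medians of -0.222, -0.279 and -0.273. Cyclic loess gave -0.227 at 24 h and -0.206 at 72 h, with the calls of EIF2D, EIF4A3 and EIF5A at 72 h lost. It gave 2 rises at 72 h, beside 8.58% of all genes, and 1 fall at 72 h against 24 h. On the scale without trp 1.84%, 2.08% and 3.58% of all genes rose at 12, 24 and 72 h. Counts between treated times on these scales have no share of all genes to be read against.

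With the probe set of largest change the medians were -0.232, -0.352 and -0.364, with 2 rises at 24 h, at 72 h and at 72 h against 12 h, and 4 falls in the last. The mean of a gene's probe sets gave -0.165 at 12 h and -0.276 at 72 h and 0 rises at 24 h, and lost 9 called changes, those of EIF1AX and EIF2B1 at 12 h, EIF2B3 at all 3 times, EIF1AD and EIF4B at 24 h, and EIF2B5 and EIF2S3 at 72 h. At more than 2-fold 4, 6 and 6 genes fell and 0 rose at 24 h or 72 h, and 0 passed at 72 h against 24 h or 12 h. With only the arrays of 24 h and 72 h, 0 genes fell between them. The counts for other probe set choices, for the 2-fold limit and for these arrays alone have no share of all genes to be read against. Every called change of an initiation factor gene kept its direction under these alternatives, and the cause of the changes in counts was not tested.

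Same-numbered arrays had a correlation of their deviations over 0.1 in 5 of 18 pairs (median -0.0559, range -0.329 to 0.411). Arrays of other numbers had one in 12 of 36 pairs (median -0.00299, range -0.455 to 0.461). Deviations from the mean of so few arrays depend on each other, so these correlations cannot decide whether same-numbered arrays were paired. With the replicate number as a block the counts stayed at 0 rises and 10 falls at 12 h, 1 and 13 at 24 h, and 1 and 14 at 72 h. Depth is not measured on arrays, and the dim EIF4E2 and EIF4E1B limit what could be detected.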
